A study of Mus musculus with 18 samples.

Results

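The mouse beta-globin genes, Hbb, lie inside a large array of olfactory receptor genes on chromosome 7, and the DNA examined here is the receptor-rich sequence on both sides of the globin cluster as seen from the Hbb promoters. All DpnII restriction fragments lying wholly within chr7:109900000-110899999 or chr7:111100001-112000000 (mm9) were taken, whatever their values. These were 3706 of the 728281 fragments listed in the 3 promoter capture tables, with 2067 in the first stretch and 1639 in the second. The Hbb genes are read towards lower coordinates, so the first stretch lies downstream of them and is called the downstream flank, and the second lies past the locus control region and is called the upstream flank. The region between the flanks, which holds the globin genes, gave 408 further fragments and served for comparison. In NG Capture-C, crosslinked nuclei are cut and religated, and reads joining a captured fragment, the viewpoint, to other fragments are counted as its interactions. Embryonic stem cells (ESC, day 0, strain 129/Sv//EV), definitive endoderm made from such cells (DE, day 5, 129/Sv//EV) and erythrocytes from spleens of phenylhydrazine-treated C57BL/6 mice (PHS, day 5) were each studied in 3 libraries that the study calls biological replicates. DE cells had grown as embryoid bodies and were then given ActivinA and EGF. The spleen suspension was filtered and no sorting step is described. In comparisons with PHS the strain changes along with the cell type, and their effects cannot be told apart.

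Olfactory receptor genes encode the odorant receptors of the nose and are silent in most other tissues. The globin genes are transcribed at very high levels in red cell precursors, where the locus control region, a group of enhancers upstream of the cluster, contacts their promoters. Phenylhydrazine destroys circulating red cells, and the spleen then fills with erythroid precursors. Trim genes encode tripartite motif proteins, ubiquitin ligases of which several act in innate immunity, and the Dub and Usp17l genes encode enzymes that remove ubiquitin.

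The downstream flank covered 71 annotated genes, of which 61 were olfactory receptor genes or pseudogenes, and it held no Trim gene. The upstream flank covered 59 genes, with 30 olfactory receptors, 11 Trim genes or pseudogenes, and the pair Dub3 and Dub1a. In the genome the downstream flank has 2790 DpnII fragments with a median length of 226 bases, and the upstream flank has 2552. GC content was 38.0% in the downstream flank and 40.4% in the upstream flank, against 43.0% over chromosome 7. Among downstream fragments 64.1%, and among upstream fragments 60.7%, had 50 bases at both ends found at no other DpnII end of the genome, and 49.7% of the fragments overlapping Trim genes did. Of the fragments with unique ends, 91.1% downstream and 80.6% upstream had a read from Hbb in at least 1 promoter library.

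The following fragments show what a contact in the flanks consists of. They are the named fragment of 300 bases or fewer, and the most contacted such fragment of the most contacted 20 kb bin per flank and cell type. Of the 7 so chosen the 5 that overlap genes are shown, read from NCBIM37 on the forward strand. Capitals mark the DpnII site, GATC, at which each fragment was cut and joined.
Usp17l5 fragment, chr7:110565775-110566047: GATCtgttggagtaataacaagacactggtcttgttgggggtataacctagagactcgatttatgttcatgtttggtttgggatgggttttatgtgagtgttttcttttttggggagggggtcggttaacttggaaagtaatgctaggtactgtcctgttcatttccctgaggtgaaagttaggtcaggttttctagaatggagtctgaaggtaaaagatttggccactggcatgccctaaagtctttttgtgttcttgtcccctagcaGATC
Olfr618 fragment, chr7:110745888-110745987: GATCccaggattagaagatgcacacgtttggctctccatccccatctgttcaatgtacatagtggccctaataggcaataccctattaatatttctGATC
4930516K23Rik fragment, chr7:111213926-111214187: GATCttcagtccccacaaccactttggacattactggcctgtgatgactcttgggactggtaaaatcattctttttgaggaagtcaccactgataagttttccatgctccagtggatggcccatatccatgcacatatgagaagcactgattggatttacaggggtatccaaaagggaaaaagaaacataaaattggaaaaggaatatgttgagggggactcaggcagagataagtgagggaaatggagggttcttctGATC
E030002O03Rik fragment, chr7:111308763-111309062: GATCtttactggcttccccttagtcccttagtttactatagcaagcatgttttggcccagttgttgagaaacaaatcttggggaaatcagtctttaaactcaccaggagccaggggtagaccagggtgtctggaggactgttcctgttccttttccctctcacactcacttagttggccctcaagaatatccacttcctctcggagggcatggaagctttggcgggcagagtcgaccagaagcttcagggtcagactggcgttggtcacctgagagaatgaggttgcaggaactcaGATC
Trim34a fragment, chr7:111399298-111399406: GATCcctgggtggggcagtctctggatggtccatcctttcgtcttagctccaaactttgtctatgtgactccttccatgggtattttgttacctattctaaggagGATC
The Olfr618 fragment lay wholly in the coding exon of this receptor gene, and the E030002O03Rik fragment shared 166 bases with coding exons. The 4930516K23Rik and Trim34a fragments were intronic, and the Usp17l5 fragment held 4 coding bases. Over the 3 libraries of a cell type, the Olfr618 fragment had 6 reads in ESC, 1 in DE and 0 in PHS, and the E030002O03Rik fragment had 1, 11 and 1. The Trim34a fragment had a single PHS read and none elsewhere, and its ends, like those of the Usp17l5 fragment, occur at other DpnII ends too. Reads per fragment were thus few, and values below are sums over bins, gene classes or whole flanks. None of the printed fragments held the core of the CTCF motif, written CNAGGNGGC and searched on both strands, which 2.64% of chromosome 7 windows of 300 bases hold. The core was found in 39 of 2790 downstream and 47 of 2552 upstream fragments, or 1.40% and 1.84%, against 3.34% of all fragments of chromosome 7.

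The Hbb promoter viewpoint gave 3419 to 5722 interactions on chromosome 7 per ESC library, 9298 to 17403 per DE library and 2163 to 6824 per PHS library. PHS replicates 1 and 3 stood apart, with 73.5% and 77.9% of their interactions on other chromosomes against 28.9% in PHS replicate 2 and 27.9% to 37.5% in ESC and DE. Replicates also differed most among PHS, where a chi-square over bins gave 2.17 to 16.1 times its degrees of freedom, compared with 0.912 to 2.16 in ESC and DE. Values are therefore given per 100000 interactions on chromosome 7. The flank shares and the ratio of the flanks are also given from PHS replicate 2 alone, and the other results are not.

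Both flanks were contacted far less often in PHS than in ESC or DE. The downstream flank took 22.8%, 22.8% and 21.1% of the chromosome 7 interactions in ESC replicates 1 to 3, 21.6%, 21.6% and 22.2% in DE, and 4.59%, 5.39% and 2.40% in PHS. All PHS libraries lay below all ESC and DE libraries, whose ranges overlapped. The 95% Wilson intervals, which cover counting error only, ran from 1.84% to 6.06% over the PHS libraries and from 19.8% to 24.1% over those of ESC. The upstream flank took 13.6%, 13.8% and 15.2% in ESC, 11.5%, 11.9% and 11.9% in DE, and 3.55%, 3.82% and 2.73% in PHS. Here the ranges of the cell types did not overlap at all. The means were 22.2% ± 0.950 (SD, n = 3) in ESC, 21.8% ± 0.327 in DE and 4.13% ± 1.54 in PHS for the downstream flank, and 14.2% ± 0.862, 11.7% ± 0.246 and 3.37% ± 0.569 for the upstream flank. The region between the flanks moved the other way, with 25.99% ± 1.59 in ESC, 20.0% ± 0.339 in DE and 50.4% ± 8.78 in PHS. As a share of all interactions, trans included, this rise did not pass the test. The mean log2 fold change in PHS was then -0.052 against ESC and 0.42 against DE (limma, adjusted p = 0.954 and 0.730). That mean pools PHS replicates 1 and 3, with 73.5% and 77.9% trans interactions, with replicate 2, with 28.9%. The region between the flanks was not compared from replicate 2 alone on this scale. Of the chromosome 7 interactions outside that region, both flanks together held 48.0% to 50.2% in ESC, 41.5% to 42.5% in DE and 11.8% to 20.1% in PHS, where the highest value was that of replicate 2.

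**Figure D1:**
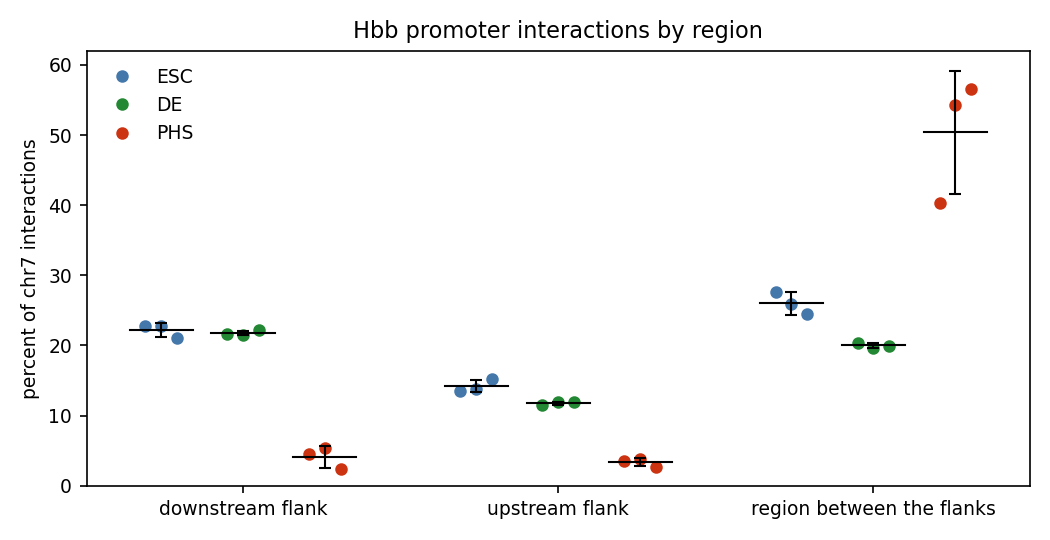
Percent of chromosome 7 interactions of the Hbb promoters (y axis) in the downstream flank, the upstream flank and the region between them, for ESC, DE and PHS. Points are libraries, horizontal lines means and bars SD (n = 3). In both flanks every PHS point lies below 6%, and in the region between the flanks every PHS point lies above 40%.

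Against ESC, the downstream flank differed by a log2 fold change of -2.50 ± 0.30 (SE) in PHS (limma, adjusted p = 0.000374) and the upstream flank by -2.08 ± 0.22 (limma, adjusted p = 0.000231). Against DE the values were -2.48 ± 0.29 and -1.81 ± 0.22 (limma, adjusted p = 0.000317 and 0.000348). With an exact two-sided permutation test of the shares each of these 4 comparisons gave p = 0.1, the smallest that 3 libraries against 3 allow. From PHS replicate 2 alone the downstream share was still 16.8 percentage points below the ESC mean and the upstream share 10.3 points. Other bins of chromosome 7 were lower in PHS as well, 35 of the 126 tested 20 kb bins outside the flanks. These 126 include the bins of the region between the flanks. Their median was -0.56 for PHS minus ESC, so that the downstream flank lay 1.94 and the upstream flank 1.52 log2 units below that median. This sets sums over a flank against single bins. The median of the flank bins themselves was -3.25 downstream and -2.27 upstream. TMM scaling, which assumes that most bins do not change, moved the median outside the flanks to 0.60 and the flanks to -0.90 and -0.47, with limma adjusted p = 0.0536 and 0.127. The distance below the median outside the flanks was then 1.49 and 1.07 log2 units.

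The flanks differed from each other at matched distance, and over the whole range the order turned between cell types. Over the distances both cover, 130.4 to 1030.4 kb from the midpoint of the Hbb-b1 and Hbb-b2 start sites, the downstream flank had 1.49, 1.45 and 1.20 times the interactions per kb of the upstream flank in ESC replicates 1 to 3. The ratio was 1.66, 1.60 and 1.66 in DE and 0.785, 0.699 and 0.559 in PHS. All ESC and DE libraries were above 1 and all PHS libraries below it. The mean ratio was 1.38 ± 0.155 (SD, n = 3) in ESC, 1.64 ± 0.0343 in DE and 0.681 ± 0.114 in PHS. The difference in log2 ratio was -1.03 for PHS minus ESC, -1.28 for PHS minus DE and 0.25 for DE minus ESC, without overlap in any comparison (exact permutation p = 0.1 each, not adjusted over the 3). With fragments of unique ends only, the ratios were 1.26 ± 0.148, 1.48 ± 0.0181 and 0.690 ± 0.107. When the whole flanks were taken, including downstream fragments 69.6 to 130.4 kb away that have no upstream counterpart, the PHS ratio was 1.08 ± 0.250.

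In steps of 100 kb the flanks of ESC and DE differed less near the cluster than farther out. From 130.4 to 430.4 kb the mean ratio per step was 0.818 to 0.960 in ESC and 0.826 to 0.903 in DE. From 430.4 to 530.4 kb, where the upstream flank holds Trim genes and no receptor gene and the downstream flank has 8 receptor genes, ESC had 25.2 ± 5.94 interactions per kb downstream and 4.70 ± 1.02 upstream (SD, n = 3, per 100000 on chromosome 7). DE had 21.1 ± 1.29 and 3.37 ± 0.496 there. PHS had 2.76 ± 0.0373 and 4.19 ± 2.65, and its libraries gave ratios of 0.408 to 2.01. In this step and the 5 beyond it, the downstream flank was higher in all 3 libraries of ESC and of DE. In DE the downstream flank had 26.8 ± 2.98 per kb in the nearest step and 17.3 ± 0.429 in the third, and 17.97 to 24.1 in the 6 steps beyond. In PHS the downstream flank fell from 7.53 ± 2.92 per kb in the nearest step to 1.02 ± 0.666 in the farthest. Between 330.4 and 430.4 kb PHS had more interactions upstream, 6.86 ± 1.58 against 2.10 ± 1.09 per kb, with ratios of 0.183 to 0.383 over its libraries against 0.665 to 1.08 in ESC and 0.814 to 0.845 in DE. From 130.4 to 330.4 kb the PHS mean ratio per step was 0.786 and 0.912, below 1 as in ESC and DE. In the 6 steps from 430.4 kb outwards it was 1.01, 0.369, 1.10, 0.951, 1.68 and 1.44. The order thus turned over the range as a whole and not in every step. The ratio over the whole range is one of summed reads, and in PHS most upstream reads lay near the cluster. The steps from 130.4 to 430.4 kb held 132, 73 and 102 of the 484. In these steps the mean ratio was below 1 in ESC and DE too. Each PHS value beyond 630.4 kb rests on 10 to 22 reads per flank. In the upstream step from 430.4 to 530.4 kb only 38.9% of fragments had unique ends. Those fragments alone gave 3.74 ± 0.981 per kb in ESC, 1.92 ± 0.584 in DE and 4.29 ± 4.73 in PHS.

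**Figure D2:**
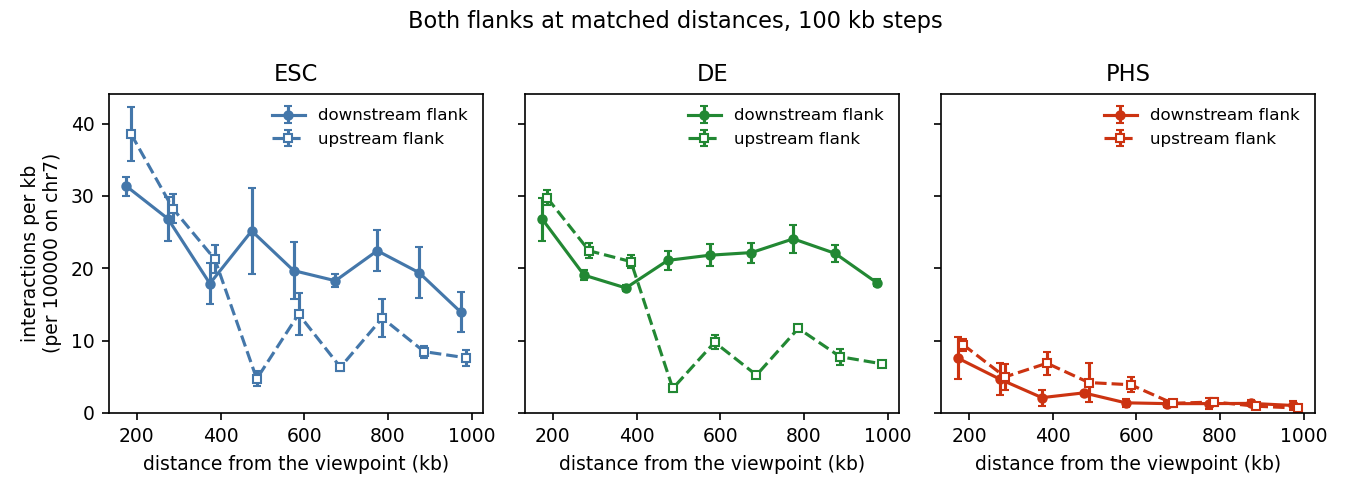
Interactions per kb, per 100000 on chromosome 7 (y axis), in 100 kb steps of distance from the Hbb viewpoint (x axis), with 1 panel each for ESC, DE and PHS. Filled circles are the downstream and open squares the upstream flank, as mean and SD of 3 libraries. The upstream flank drops to 4.70 in ESC and 3.37 in DE at 430.4 to 530.4 kb while the downstream flank stays above 20, and in PHS both flanks lie below 10.

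Nearly all 20 kb bins of the downstream flank and most of the upstream flank were lower in PHS. Against ESC, 47 of 50 downstream bins and 35 of 45 upstream bins were lower by limma at an adjusted p under 0.05 and 0 were higher, where 52.9% of all 221 tested bins of chromosome 7 were lower and 11.8% higher. Under TMM scaling 22 downstream bins were lower and 2 higher, and 5 upstream bins were lower and 3 higher. Under DESeq2 size factors the counts were 26 and 1 downstream and 11 and 3 upstream. Against DE, 46 of 50 and 33 of 45 were lower and 0 higher, where 31.3% of 453 tested bins were lower and 7.51% higher. The upstream count was 20 when scaled to chromosome 7 outside the region between the flanks and 14 with no read minimum, and 1 or 2 upstream bins were higher in edgeR, DESeq2, with a pseudocount of 50, with the replicate block and without PHS replicate 3. The median log2 fold change was -3.25 downstream and -2.27 upstream against ESC, compared with -1.93 over all tested bins, and -3.47 and -2.11 against DE, compared with -0.93. The flank bins are themselves part of these totals. In 2 downstream and 3 upstream bins PHS had no read.

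The lowest downstream bins lay far from the globin genes. The bin with Olfr577 and Olfr578 (chr7:110120001-110140000) had 545, 612 and 731 interactions per 100000 in ESC, 522, 506 and 419 in DE and 14.7, 0 and 0 in PHS. Its 1 PHS read gave a ratio to ESC of 0.0117, with an exact 95% counting interval from 0.000292 to 0.0669. The bin with Olfr561 (chr7:109920001-109940000) had 347, 524 and 322 in ESC, 495, 368 and 323 in DE and no PHS read. Set against a floor of 3 reads over the PHS group, it was at least 19.2-fold lower than in ESC and at least 18.5-fold lower than in DE. The bin with Olfr589 (chr7:110300001-110320000) also had no PHS read and was at least 12.2-fold lower than in ESC and at least 16.4-fold lower than in DE. The lowest bins of both flanks were named only among those without overlap, so that their separation follows from this choice. With 0 or 1 PHS read each, they met the minimum of 10 reads through their ESC or DE reads.

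The lowest upstream bins lay past the Trim genes. The bin with the receptor genes Olfr651 and Olfr652 (chr7:111700001-111720000) had 198, 367 and 293 in ESC, 251, 184 and 108 in DE and no PHS read, at least 13.6-fold lower than in ESC and at least 8.75-fold lower than in DE. The bin with Dub1a (chr7:111980001-112000000), a deubiquitinating enzyme gene, had 99.0, 262 and 175 in ESC, 142, 132 and 151 in DE and no PHS read, at least 8.71-fold and 6.42-fold lower. The Dub3 bin (chr7:111920001-111940000) had 1 PHS read against 20 in ESC and 76 in DE, a ratio to DE of 0.0396 with an exact counting interval from 0.000990 to 0.227. The bin without genes at chr7:111940001-111960000 had 19 ESC reads and no PHS read. Unique ends were fewer in this part of the flank, with 91.3% of fragments in the Olfr651 bin but 51.6% in the Dub1a bin and 42.6% in the Dub3 bin.

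The bins that did not pass the test fell into a few stretches. Downstream, the bins nearest the globin cluster, from Olfr626-ps1 to Olfr629, did not pass in either comparison. The bin with Olfr243 (chr7:110860001-110880000) had 718, 682 and 410 in ESC, 651, 598 and 796 in DE and 718, 1190 and 324 in PHS, with overlapping ranges and a log2 fold change of 0.16 ± 0.49 against ESC (limma, adjusted p = 0.776). The bin with Olfr628 and Olfr629 beside it gave -0.49 ± 0.34 against ESC and -0.25 ± 0.34 against DE (limma, adjusted p = 0.229 and 0.582). The upstream flank begins farther from the viewpoint and has no bin so near it. Upstream, bins from Trim6 to Trim12a did not pass. The Trim6 bin (chr7:111360001-111380000) had 173, 175 and 205 in ESC, 305, 207 and 280 in DE and 220, 125 and 231 in PHS, and differed by 0.01 ± 0.42 against ESC (limma, adjusted p = 0.972). The bin from chr7:111440001-111460000, over Trim12a and Trim34b, had 1 read in all ESC libraries, 1 in DE and 15 in PHS, of which 0 were in replicate 3. The standard errors of the bins that did not pass against ESC ran from 0.34 to 1.08 log2 units, so that sizeable changes in either direction remain possible there. Of the 10 upstream bins that did not pass against ESC, 8 overlapped a Trim gene or pseudogene, 1 overlapped Gm6574 and 1 held no gene. Trim genes overlap 700 of the 2552 upstream fragments, and their share among all upstream bins was not counted. The bins from chr7:111400001 to 111480000, all over Trim genes, had 4, 3, 1 and 7 ESC reads, which left little room for a fall.

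**Figure D3:**
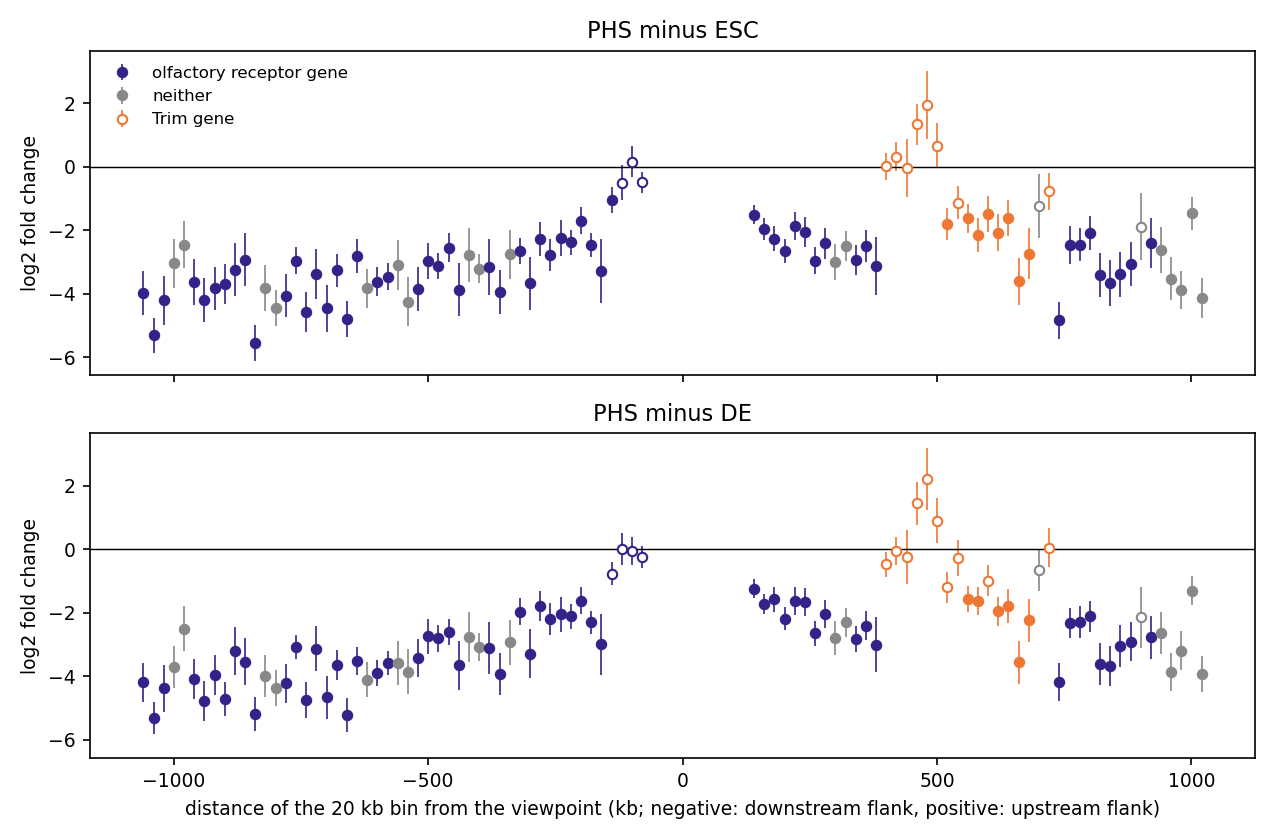
Log2 fold change of 20 kb bins (y axis, with SE) for PHS minus ESC and PHS minus DE by distance from the Hbb viewpoint (x axis, kb; negative is downstream). Filled points passed limma at an adjusted p under 0.05, open points did not, and colours mark bins over Trim genes, over receptor genes and over neither. Open points gather at the cluster side of the downstream flank and over the Trim genes near 400 to 540 kb upstream.

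Receptor gene fragments fell in both flanks. Fragments overlapping olfactory receptor genes had 36.8, 33.7 and 35.9 interactions per kb in ESC, 30.2, 29.9 and 27.6 in DE and 6.74, 3.78 and 4.18 in PHS in the downstream flank. In the upstream flank they had 25.5, 30.2 and 24.9 in ESC, 22.7, 19.6 and 21.7 in DE and 5.56, 4.75 and 2.81 in PHS. The groups of PHS libraries did not overlap the others, and the log2 fold changes were -2.88 ± 0.29 and -2.63 ± 0.34 against ESC and -2.60 ± 0.29 and -2.30 ± 0.33 against DE (limma, adjusted p = 0.000231, 0.000485, 0.000237 and 0.000660). Under TMM scaling the upstream call against ESC was lost (-1.04, limma adjusted p = 0.0647). Fragments outside genes changed by like amounts, -2.44 ± 0.35 downstream and -2.42 ± 0.24 upstream against ESC, of which the first was lost under TMM scaling (-0.83, limma adjusted p = 0.0968). In ESC, receptor gene fragments stood above fragments outside genes in the same flank, at 35.5 ± 1.57 against 20.1 ± 1.16 per kb downstream and 26.9 ± 2.93 against 13.7 ± 0.832 upstream. In PHS the levels were 4.90 ± 1.61 against 4.02 ± 1.82 downstream and 4.37 ± 1.42 against 2.56 ± 0.436 upstream. The shares of fragments with unique ends were 81.8% in downstream and 89.9% in upstream receptor genes and 62.1% and 62.0% outside genes, and their part in this difference was not tested.

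Ubqlnl, a ubiquilin-like gene of the upstream flank, was lower in PHS. It had 66.2, 53.4 and 78.3 interactions per kb in ESC, 44.1, 37.3 and 61.7 in DE and 16.8, 0 and 0 in PHS, without overlap between PHS and the others. It changed by -3.36 ± 0.77 against ESC and -2.91 ± 0.75 against DE (limma, adjusted p = 0.00485 and 0.0114). This rests on few reads, 22 in ESC, 49 in DE and 3 in PHS. The ratio of PHS to ESC was 0.130, with an exact 95% counting interval from 0.0250 to 0.434. The call against ESC was lost under TMM scaling (-2.31, limma adjusted p = 0.102) and under DESeq2 size factors (-2.43, limma adjusted p = 0.0753), and the call against DE without DE replicate 3 (-2.73, limma adjusted p = 0.0762).

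Fragments over Trim genes had fewer interactions per kb than receptor genes of the same flank in ESC and DE, and about as many in PHS. They had 7.30, 6.13 and 10.3 interactions per kb in ESC, 6.21, 7.47 and 6.77 in DE and 4.38, 5.24 and 3.50 in PHS. The PHS range lay just below the others, and the class changed by -0.83 ± 0.30 against ESC and -0.65 ± 0.27 against DE (limma, adjusted p = 0.0357 and 0.0818). The direction depended on the scaling: it was 0.77 under TMM scaling and 0.58 under DESeq2 size factors against ESC, and 0.05 against DE when scaled to chromosome 7 outside the region between the flanks. Without ESC replicate 1, ESC replicate 3 or PHS replicate 1 the call against ESC was lost, with limma adjusted p up to 0.142, and against DE it was gained without PHS replicate 2 or 3 (limma, adjusted p = 0.0279 and 0.0443). A ratio within each library does not depend on the scaling. Trim over receptor gene fragments of the upstream flank, per kb, gave 0.286, 0.203 and 0.413 in ESC, 0.273, 0.381 and 0.312 in DE and 0.788, 1.10 and 1.25 in PHS. All PHS libraries were above all others, with means of 0.300 ± 0.106, 0.322 ± 0.0543 and 1.05 ± 0.235, and the log2 ratio differed by 1.83 from ESC and 1.69 from DE (exact permutation p = 0.1 each). This ratio was chosen after the values of the classes had been seen. With unique ends only the means were 0.409 ± 0.125, 0.444 ± 0.0474 and 1.17 ± 0.339. Uniqueness was counted in NCBIM37 only. Of upstream fragments with unique ends, 66.7% over Trim genes and 96.0% over receptor genes had a read in at least 1 promoter library.

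The Trim genes did not move together. Of the 10 tested, 3 were lower, 1 was higher and 6 did not pass against ESC, and 2 were lower, 1 was higher and 7 did not pass against DE. Among all tested bins of chromosome 7, 52.9% were lower and 11.8% higher against ESC, and 31.3% and 7.51% against DE. Trim30a, a regulator of Toll-like receptor signalling, had 9.10, 8.87 and 17.9 interactions per kb in ESC, 8.66, 10.3 and 10.4 in DE and 3.33, 3.29 and 1.62 in PHS. It changed by -2.04 ± 0.45 against ESC and -1.83 ± 0.38 against DE (limma, adjusted p = 0.00383 and 0.00415), with no overlap. The call against ESC was lost under TMM scaling (-0.49, limma adjusted p = 0.421) and DESeq2 size factors (-0.67, limma adjusted p = 0.249), and that against DE with no read minimum (limma, adjusted p = 0.163). Trim30d changed by -3.10 ± 0.75 and -2.98 ± 0.69 (limma, adjusted p = 0.00631 and 0.00674), with 4 PHS reads. Here too the call against ESC was lost under TMM scaling (-1.80, limma adjusted p = 0.164) and size factors (-1.94, limma adjusted p = 0.119). Trim30b changed by -1.26 ± 0.48 against ESC (limma, adjusted p = 0.0427) and by -0.17 ± 0.56 against DE (limma, adjusted p = 0.835). Its call against ESC was lost without any 1 ESC library and without PHS replicate 1 or 2 (-1.32 to -1.06), and the direction turned under TMM scaling (0.23) and DESeq2 size factors (0.050). Trim5, a retroviral restriction factor, was higher in PHS, with 2 ESC, 7 DE and 14 PHS reads and log2 fold changes of 2.15 ± 0.75 and 1.83 ± 0.66 (limma, adjusted p = 0.0311 and 0.0490). Its per kb values were 0.956, 0.675 and 0 in ESC, 1.05, 0.222 and 0.831 in DE and 2.83, 6.45 and 1.79 in PHS. The annotated span of Trim34a contains those of Trim5, Trim12a and Trim34b, so that fragments there count for more than 1 gene. The Trim5 call held in only 11 of 20 alternatives against ESC and 7 of 20 against DE. Against ESC it was lost without ESC replicate 2 or 3 or PHS replicate 1 or 2, with values from 1.60 to 2.33. It was also lost there with DESeq2, a pseudocount of 2, no read minimum, 50 kb bins and scaling to all interactions. Against DE it was lost without any single DE library or PHS replicate 1 or 2, with values from 1.37 to 2.08. Scaling to all interactions, DESeq2 size factors, a pseudocount of 2, no read minimum and 50 kb bins also lost it. So did the replicate block, all cell types in the fit and subtraction of the trans level. Trim6 and Trim34a gave 0.44 ± 0.43 and 0.44 ± 0.44 against ESC, neither of which passed. Against DE, Trim12c gave -0.29 ± 0.43 and Trim34b 0.02 ± 0.65. Trim12a had 1 ESC, 1 DE and 15 PHS reads, and did not pass at 2.06 ± 1.10 and 2.33 ± 1.00 (limma, adjusted p = 0.123 and 0.0922). Trim30c had 15 ESC, 47 DE and 5 PHS reads and gave -1.83 ± 0.81 and -1.91 ± 0.76 (limma, adjusted p = 0.0728 and 0.0717). The direction against ESC turned under another scaling for Trim6, Trim34a, Trim34b, Trim12c and Trim30b.

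**Figure D4:**
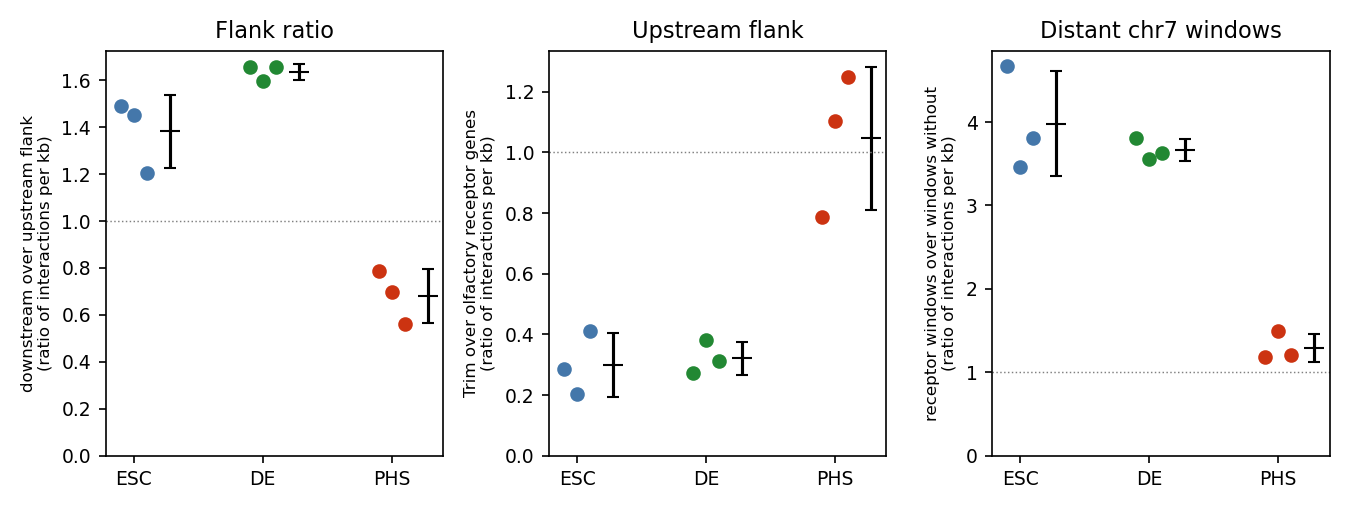
Ratios of interactions per kb in each library (y axes) for ESC, DE and PHS, as points with mean and SD (n = 3) beside them and a dotted line at 1. The panels show the downstream over the upstream flank at matched distances, Trim over receptor gene fragments of the upstream flank, and distant windows rich in receptor genes over windows without any. The PHS libraries lie at 0.559 to 0.785, 0.788 to 1.25 and 1.18 to 1.49, apart from both other cell types in every panel.

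The most contacted bins were partly shared between cell types. Outside the 100 kb of each flank next to the cluster, the bin with Olfr618 to Olfr620 (chr7:110740001-110760000) led the downstream flank in ESC with 813 ± 122 per 100000 (SD, n = 3) and in DE with 678 ± 102, and it was the second in PHS with 155 ± 57.3, within the spread of the leading bin there, that of Olfr620 and Olfr621-ps1 (176 ± 73.2). The bin ranked below it in ESC, with Olfr613, Olfr615 and Olfr616, had 798 ± 56.7, which is within the spread of the leading bin. In the upstream flank the leading bins of ESC held Olfr643 and Olfr644 (725 ± 185) and E030002O03Rik (717 ± 247), again not apart beyond their spread, and the latter led in DE with 634 ± 49.4. ESC and DE shared their 3 most contacted upstream bins. In PHS the leading upstream bins were those of Trim6 and Trim34a (222 ± 99.1) and of Trim6 (192 ± 58.1), where ESC had 169 ± 45.2 and 184 ± 17.8. The bin with Olfr643 and Olfr644 came next in PHS with 184 ± 115, so that these 3 bins were not apart beyond their spread.

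In the flanks DE and ESC differed less from each other than either did from PHS. The median of the 299 tested bins outside the flanks was 0.35 for DE minus ESC. The downstream flank lay 0.38 and the upstream flank 0.62 log2 units below it, and 0.35 to 0.44 and 0.59 to 0.68 over the scalings tried. These values set sums over a flank against single bins. The median flank bin was -0.003 downstream and -0.18 upstream. The downstream flank differed by -0.03 ± 0.05 and did not pass (limma, adjusted p = 0.887). The upstream flank was lower in DE by a log2 fold change of -0.27 ± 0.07 (limma, adjusted p = 0.00719), and the shares did not overlap between the libraries. The call was lost without ESC replicate 2 or any single DE library, where the value ranged from -0.30 to -0.22 over all libraries left out, and under TMM scaling (-0.15, limma adjusted p = 0.242). The region between the flanks fell by 0.38 ± 0.05 (limma, adjusted p = 3.58e-08), a call that was lost with all cell types in the fit (limma, adjusted p = 0.593), under DESeq2 size factors (-0.22, limma adjusted p = 0.200) and without ESC replicate 2 (-0.38, limma adjusted p = 0.0577). Of 20 kb bins, 1 of 50 downstream bins was higher in DE and none was lower, and 0 of 44 upstream bins passed in either direction, where 0.509% of 393 tested bins of chromosome 7 were higher and 1.02% lower. This was the bin with the receptor gene Olfr572 (chr7:110060001-110080000), with 297, 280 and 175 in ESC and 495, 534 and 495 in DE. Its log2 fold change was 1.02 ± 0.27 (limma, adjusted p = 0.0139), and it did not pass without ESC replicate 2, ESC replicate 3 or any single DE library, with values from 0.80 to 1.12. None of the 10 Trim genes passed, nor did Ubqlnl.

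Single fragments were too sparse for firm calls. Against ESC, 11 downstream and 0 upstream fragments had the 10 reads needed and none passed, where 26.7% of 266 tested fragments of chromosome 7 were higher and 2.63% lower. The DE libraries hold about 3 times the chromosome 7 reads of PHS, so that fragments met the minimum against DE mainly through their DE reads, which favours a lower value in PHS. These counts therefore give no support for a direction. Here limma called 90 of 179 downstream and 25 of 74 upstream fragments lower, where 24.9% of 622 were lower and 12.5% higher. With edgeR on the recovered reads these counts were 3 and 0, and with DESeq2 both were 0. Without DE replicate 1, 2 or 3 in turn, limma called 14, 9 and 33 downstream and 2, 5 and 10 upstream. The first of the named fragments, that of Usp17l5 printed above, had 4, 4 and 2 reads in DE and none in PHS, which amounts to at least 1.11-fold lower. The other named fragments, with 10 to 12 DE reads each and none in PHS, lay in Olfr613, Olfr649, 4930516K23Rik and outside genes. Between DE and ESC no fragment of the flanks passed, and 0% of the 861 tested on chromosome 7 did in either direction.

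The flanks were seen from Hbb a second time in the enhancer capture, which by the labels was made from the same 9 libraries and is not independent. There the downstream flank took 20.2% to 25.8% of chromosome 7 interactions in ESC, 21.5% to 24.1% in DE and 2.33% to 5.46% in PHS, and the upstream flank 12.9% to 14.8%, 11.7% to 13.4% and 3.49% to 4.29%. Distances were counted from the promoter start sites here too, so the flanks were not matched in distance from the enhancer viewpoint. Over those fragments the flank ratio was 1.19 to 1.56 in ESC, 1.44 to 1.81 in DE and 0.417 to 0.875 in PHS. The PHS range did not meet the others in any of these, and PHS replicate 3 rested on 16 downstream and 24 upstream reads. From promoters on other chromosomes the flanks were contacted at 0.343 to 1.46 times the mean density of chromosome 7 in ESC, 0.198 to 1.04 times in DE and 0.327 to 2.87 times in PHS, over 9 libraries and 5 viewpoints. From Lhx1 the PHS libraries had 1.51, 1.29 and 2.73 times that density, above all ESC and DE libraries, which had at most 0.919. From each of the other viewpoints PHS overlapped ESC. For Lhx1 the flanks together had 34.5 to 214 per 100000 trans interactions. Reads were not recovered for these viewpoints, so the counts behind the ratios are not given. None of this was tested.

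A fall at these distances in PHS was shared by the other promoters, and was larger at Hbb. At 130.4 to 1030.4 kb on either side, Hbb had 33.6% ± 0.209 (SD, n = 3) of its chromosome's interactions in ESC, 31.0% ± 0.565 in DE and 5.69% ± 1.25 in PHS. The alpha-globin viewpoint, Hba, went from 23.6% ± 0.437 in ESC to 7.49% ± 1.98 in PHS and Slc25a37, which encodes a mitochondrial iron importer, from 21.6% ± 0.493 to 6.83% ± 2.99. Eomes, a transcription factor gene of early endoderm, went from 28.3% ± 0.383 to 14.9% ± 2.32, Foxa2 from 30.7% ± 0.305 to 9.69% ± 2.68 and Lhx1 from 23.1% ± 0.652 to 12.7% ± 3.24. The log2 ratio of Hbb to each other promoter in the same library was lower in PHS than in ESC by 0.83 to 1.69, without overlap in any of the 5 comparisons (exact permutation p = 0.1 each, 0.1 after Benjamini-Hochberg adjustment). This comparison was added after the values of the flanks had been seen.

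**Figure D5:**
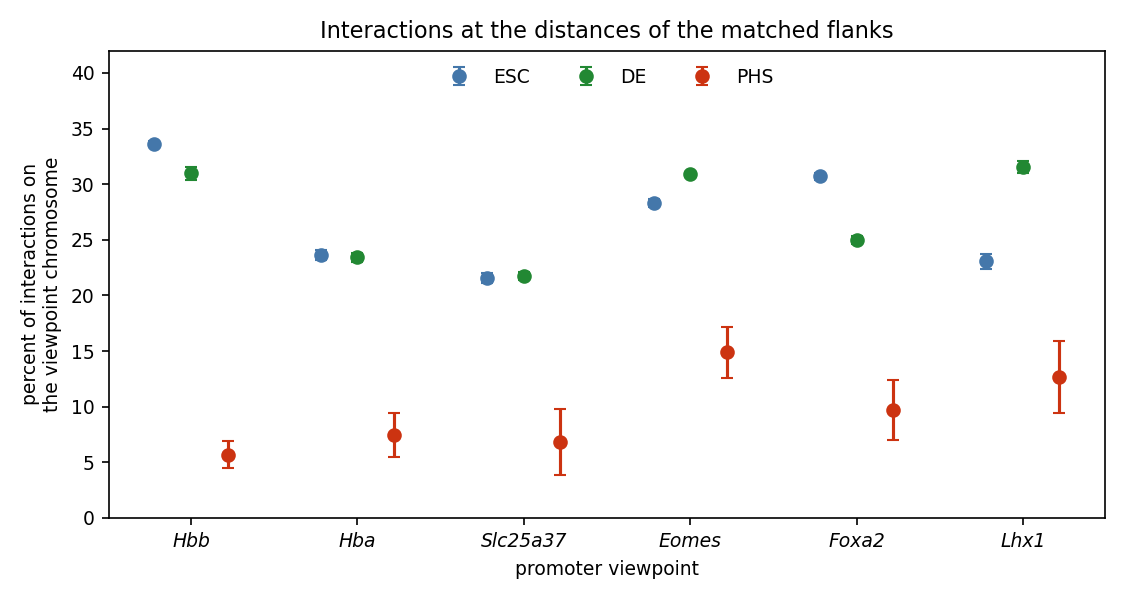
Percent of interactions on the viewpoint's own chromosome (y axis) that fell 130.4 to 1030.4 kb to either side of 6 promoter viewpoints (x axis), as mean and SD of 3 libraries for ESC, DE and PHS. Hbb goes from 33.6% in ESC, the highest ESC mean, to 5.69% in PHS, the lowest PHS mean. The PHS libraries of Hbb (4.25% to 6.50%) overlap those of Hba (5.20% to 8.71%) and Slc25a37 (3.87% to 9.85%).

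On average, windows with receptor gene clusters elsewhere on chromosome 7 were also contacted more often than windows without them in ESC and DE. More than 2 Mb from the viewpoint, the 6 windows of 1 Mb with 5 or more olfactory receptor genes had 4.68, 3.46 and 3.81 times the mean of 136 windows without any in ESC replicates 1 to 3, 3.81, 3.55 and 3.63 times in DE, and 1.18, 1.49 and 1.21 times in PHS. PHS lay apart from both, with means of 3.98 ± 0.629 (SD, n = 3), 3.67 ± 0.129 and 1.29 ± 0.171 and differences in log2 ratio of -1.62 from ESC and -1.51 from DE (exact permutation p = 0.1 each). DE and ESC overlapped. The window at chr7:6000001-7000000 went the other way, with no ESC read and 122 ± 25.9 per 100000 in DE, where windows without receptor genes had means of 156 and 199. Of the 6 windows, 3 lie 2.53 to 4.53 Mb from the viewpoint, nearer than most windows without receptor genes. Within 2 to 10 Mb, 3 such windows against 11 others gave 3.23 ± 0.513 in ESC, 2.82 ± 0.168 in DE and 0.890 ± 0.141 in PHS. The 3 are those at 2.53 to 4.53 Mb, all on the upstream side. The 11 others were taken from both sides over the whole range, so distance was not matched here either. Beyond 10 Mb the ratios were 1.39 ± 0.288, 1.39 ± 0.0572 and 0.508 ± 0.174.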

How the data were processed

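NG Capture-C of the Hbb promoters was analysed in 9 promoter and 9 enhancer captures of ESC, DE and PHS, 3 replicates each, grouped by the labels. The authors mapped reads with Capture-C scripts (the submitters' notes name Trim Galore, Bowtie and mm9) and deposited a signal per DpnII fragment, scaled to 100000 interactions per column. Every value of the Hbb columns was a whole number of reads within 0.05, and reads were recovered for these columns. Of 108 columns, 45 were not used. All fragments of chromosome 7 matched a DpnII digest of NCBIM37, and gene names came from its GENCODE annotation.

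Sums over flanks, gene classes and 20 kb bins with at least 10 reads were fitted by limma on log2 of the value per 100000 chromosome 7 interactions plus 10, with the libraries of the compared cell types only and Benjamini-Hochberg adjustment over all rows, threshold 0.05. Exact two-sided permutation tests were used for shares and ratios. Intervals at 95% cover counting error only, since reads carried no molecular identifiers. Exact p-values rest on the libraries of the result alone. Limma p-values rest on a spread between these libraries that is shared over all rows fitted together. They can therefore be far smaller than an exact test of 3 libraries against 3 allows. Bins named were up to 3 highest and 3 lowest per flank and comparison among those called without overlap, the 3 most contacted per cell type and flank, the Trim genes and Ubqlnl, and up to 3 called fragments by adjusted p. A further gene that the rule names, and the class that holds it, are not reported here. Members and lists were chosen with earlier results of these data known. Tests were tested on simulated data. Alternatives were 4 scalings, pseudocounts of 2 and 50, no read minimum, bins of 10 and 50 kb, a replicate block, all cell types in 1 fit, edgeR, DESeq2, subtraction of the trans level, other distances, windows and units for the ratios, and each library left out. Fragments with unique ends, PHS replicate 2 alone, other viewpoints, windows at 2 to 10 Mb and the Trim ratio were added after the values were seen. Same-numbered libraries did not deviate together (correlations from -0.110 to 0.110 over 179 bins), so the numbers were not treated as pairs. R 4.3.3, limma 3.58.1, edgeR 4.0.16, DESeq2 1.42.0, Python 3.11.15, numpy 2.4.6, pandas 2.3.3, scipy 1.17.1 and matplotlib 3.10.9 were used.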

Additional observations from a re-analysis of the deposited data

Results flagged for a closer look

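The ratio of the flanks was taken over all matched distances together, on the log2 scale. It was above 0 in every ESC library (0.57, 0.54 and 0.27) and every DE library (0.73, 0.67 and 0.73). In every PHS library it was below 0 (-0.35, -0.52 and -0.84), though not in every 100 kb step. The mean differed by -1.03 for PHS minus ESC and by -1.28 for PHS minus DE, with an exact permutation p of 0.1 in each, the smallest that the design allows. PHS replicate 2, the PHS library with the lowest trans share, alone gave -0.98 against ESC and -1.23 against DE. With whole flanks in place of matched distances the differences were -0.42 and -0.66, and the 3 PHS libraries then gave 0.22, 0.34 and -0.33.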

How the results depend on the processing

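Of 1867 values recomputed under alternatives, 1641 kept their direction and side of the threshold, or for counts stayed within 1.5 times. Values from permutation tests could change only in direction, since 3 libraries against 3 cannot pass 0.05. The total also holds counts of 0 and bins that were named because they were called. Scaling mattered most, and the numbers of reads limit single fragments and genes. The cause of the changes below was not tested, save that other bin sizes change the number of bins.

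For PHS minus ESC under TMM scaling, log2 fold changes were -0.90 for the downstream and -0.47 for the upstream flank, -1.23 for other genes and -0.83 outside genes downstream, and upstream -1.04 for receptor genes, 0.77 for Trim genes and -0.72 for other genes, and these differences no longer passed the test or turned. Under DESeq2 size factors Trim genes gave 0.58. Trim genes gave -0.24 scaled to chromosome 7 outside the region between the flanks, -0.83 with no minimum and from -0.997 to -0.63 with a library left out. Scaled to all interactions, the region between the flanks gave -0.052, Trim6 -0.43 and Trim34a -0.49. Trim34b gave 0.31 scaled outside the region between, 1.25 under TMM, 1.08 under size factors, 0.18 in edgeR, 0.11 in DESeq2 and from -0.80 to 0.42 with a library left out. Under TMM and size factors Trim12c gave 0.64 and 0.46, and Trim30b 0.23 and 0.050. Downstream bins called higher were 2 and 1 and lower 22 and 26, and upstream bins higher 3 and 3 and lower 5 and 11, under TMM and size factors. Upstream, 1 bin was higher in edgeR, 1 with 10 kb bins and 0 to 1 with a library left out. With 10 and 50 kb bins, 84 and 19 were lower downstream and 55 and 14 upstream. With all cell types in the fit 1 downstream fragment was lower.

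For PHS minus DE, Trim genes gave 0.049 scaled outside the region between, -0.60 in edgeR, -0.61 in DESeq2 and from -0.79 to -0.50 with a library left out. Trim6 gave 0.21 scaled outside the region between and Trim34a -0.30 scaled to all interactions. Trim34b gave -0.62 scaled to all interactions, -0.034 with the trans level subtracted and from -0.55 to 0.67 with a library left out. Trim12c gave 0.38 scaled outside the region between and 0.090 under TMM. Trim30b gave 0.48 and 0.18 there and from -0.53 to 0.25 with a library left out. With 10 and 50 kb bins, 85 and 19 were lower downstream and 53 and 14 upstream. Upstream bins lower were 20 scaled outside the region between and 14 with no minimum, and bins higher were 1 with a pseudocount of 50, 2 in edgeR, 1 in DESeq2 and 0 to 1 with a library left out. Downstream fragments higher were 1 scaled outside the region between and 0 to 1 with a library left out, and lower 1 with no minimum, 3 in edgeR, 0 in DESeq2 and 9 to 97 with a library left out. Upstream fragments lower were 46 scaled to all interactions, 41 under TMM, 42 under size factors, 0 with no minimum, 0 in edgeR and DESeq2 and 2 to 35 with a library left out.

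For DE minus ESC, TMM and size factors gave 0.090 and 0.13 for the downstream flank, -0.15 and -0.11 for the upstream flank and -0.22 and -0.18 for other upstream genes. The upstream flank gave -0.27 with a pseudocount of 2 and with all cell types in the fit, and from -0.30 to -0.22 with a library left out. Other upstream genes gave -0.34 with a pseudocount of 2, all cell types and 10 or 50 kb bins, -0.33 with a pseudocount of 50, -0.32 in DESeq2 and from -0.41 to -0.27 with a library left out. Scaled to all interactions and outside the region between, other downstream genes gave -0.053 and -0.070 (from -0.20 to 0.19 with a library left out) and downstream fragments outside genes -0.063 and -0.080 (from -0.015 to 0.065). Downstream receptor genes gave -0.39 scaled outside the region between and -0.28 with no minimum, upstream fragments outside genes -0.33 and -0.21. Trim genes gave from -0.35 to 0.023 with a library left out. Downstream bins higher were 0 with a pseudocount of 2, no minimum, all cell types, DESeq2 and 10 or 50 kb bins, and 0 to 1 with a library left out. Scaled to all interactions and outside the region between, 1 and 2 bins were lower downstream and 1 and 1 upstream, and 1 was lower upstream in edgeR. With all cell types 5 downstream and 1 upstream fragments were higher. The far receptor windows gave 0.0156 beyond 10 Mb and from -0.20 to 0.0148 with a library left out, and the Trim ratio from -0.11 to 0.41.

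With the replicate number as a block, although the numbers did not pair the libraries, the downstream flank gave -2.50 for PHS minus ESC (limma, adjusted p = 4.25e-05), Trim genes -0.83 (limma, adjusted p = 0.0750) and other upstream genes -0.34 for DE minus ESC (limma, adjusted p = 0.123), and 1 upstream bin was higher for PHS minus DE.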

Other observations

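Among the distant receptor windows, the nearest, chr7:113000001-114000000 with 10 olfactory receptor genes, had 1410 ± 376 interactions per 100000 in ESC, 1429 ± 114 in DE and 678 ± 164 in PHS (SD, n = 3). The window with most receptor genes, 36 at chr7:115000001-116000000, had 721 ± 67.4, 1021 ± 20.3 and 357 ± 153. Here DE was above ESC in the means. The farthest receptor window, with 8 such genes at chr7:6000001-7000000, had no ESC read, 122 ± 25.9 in DE and 86.1 ± 93.1 in PHS.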
